A study of Mus musculus with 6 samples.

Results

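Sorted proB cells of Hardy fraction B were compared between mice carrying a mutation of zinc finger 4 and mice carrying a mutation of zinc finger 1 of Ikaros, a DNA-binding regulator of lymphocyte development encoded by Ikzf1. The comparison uses 2 of the 6 RNA sequencing libraries: Ikaros_ZnF4-/- (called ZnF4) and Ikaros_ZnF1-/- (called ZnF1). The wild-type library (wt) of the same fraction serves to say which mutant stood away from it. All animals were C57BL/6 mice of 6 to 7 weeks, and the cells came from bone marrow. The other 3 libraries hold the same genotypes in the pool of fractions C and C', called fraction C. Each group is 1 library, and the labels give neither the number of animals in it nor the form of the mutant allele. A difference between libraries therefore has no replicate check, and sizes are given without p-values.

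Ikaros binds DNA through a row of zinc fingers, of which the inner ones make most of the contact with the core sequence and the outer ones, 1 and 4, adjust which sites are bound. It forms dimers with itself and its relatives through a separate set of fingers, and it works with chromatin remodelling complexes that can raise or lower transcription. In developing B cells Ikaros is known for switching on genes of preB cell receptor signalling and of recombination, and for silencing genes of other lineages and of proliferation. Fraction B holds proB cells that have begun to rearrange the heavy chain gene.

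Expression was given by the authors as RPKM, which scales reads to transcript length and library size, for each RefSeq transcript and rounded to 0.1. Each gene symbol was represented by its transcript with the highest mean of the 6 libraries, and 10943 of 22098 symbols reached a mean of 1 RPKM and were compared. A fold is a difference of log2(RPKM + 1), which understates the fold of genes with low values. Depth is unknown, because read numbers could not be recovered. In fraction B summed RPKM ran from 262649 (ZnF4) to 296549 (ZnF1), and 94 of the kept genes were listed at 0 in ZnF4 against 18 in ZnF1 and 9 in wt. The 14 proB markers, among them Ebf1 and Igll1, were present in all 3 libraries and summed to 3479.1 RPKM in wt, 5003.9 in ZnF1 and 5113.3 in ZnF4. Both mutants had Xist, the RNA of the inactive X, listed at 0 against 81.3 RPKM in wt. The Y-linked gene Eif2s3y stood at 34.4 in ZnF1 and 55.1 in ZnF4 and was listed at 0 in wt. Sex thus differs between wt and the mutants, but not between the mutants.

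The ZnF4 library held more RNA of listed genes of later B-cell stages than the ZnF1 library. It held less of listed genes of early progenitors, Gimap GTPases, growth, DNA replication and other blood cells. These lists were chosen with earlier results of these data known, so they give a description and no independent support. In bulk RNA fewer cells of a type and less RNA per cell cannot be told apart. At least 2-fold higher in ZnF4 were 542 genes (4.95% of all) and at least 2-fold lower were 1195 (10.9%). The median log2 difference over all 10943 genes was -0.17, with 4154 positive, 6658 negative and 131 at 0. Rescaling the libraries on their median ratio moved that median to -0.04 and the counts to 686 higher and 920 lower. The higher share of the genes apart was 31.2% as deposited and 42.7% after this rescaling. With equal summed RPKM it was 44.3% (718 higher and 902 lower), with a median of -0.02. Differences of at least 4-fold were seen for 146 higher and 236 lower genes, and of at least 16-fold for 7 and 19.

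**Figure D1:**
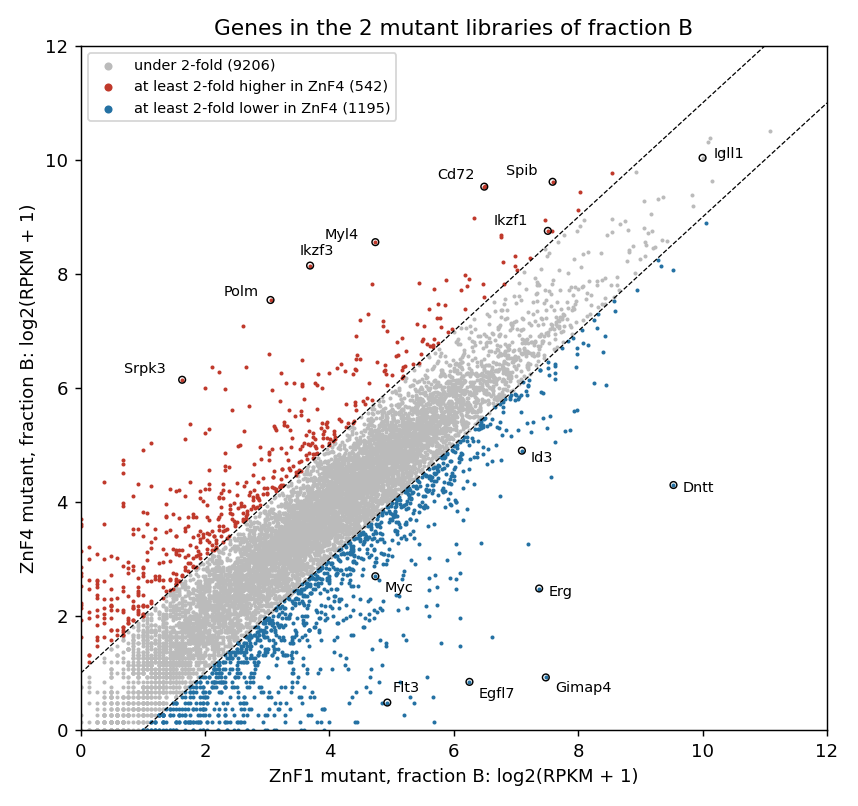
Level of each kept gene in the ZnF1 library against the ZnF4 library, fraction B, both axes as log2(RPKM + 1), with genes at least 2-fold apart coloured. The 1195 genes lower in ZnF4 outnumber the 542 higher ones, and Dntt and Gimap4 lie far below the diagonal.

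Set against wt, ZnF4 lay farther away than ZnF1 for 420 of the 542 higher genes (77.5%) and 971 of the 1195 lower ones (81.3%). Of the 542 higher genes, 253 (46.7%) were at least 2-fold above wt in ZnF4 alone and 54 (9.96%) were at least 2-fold below wt in ZnF1 alone. A further 44 (8.12%) were apart from wt in both mutants in opposite directions, 4 in both in the same direction, and 187 (34.5%) in neither. Of the 1195 lower genes, 643 (53.8%) were at least 2-fold from wt in ZnF4 alone, 82 (6.86%) in ZnF1 alone, 61 (5.10%) in both oppositely, 35 in both in the same direction and 374 (31.3%) in neither. Over all genes 3.7% were at least 2-fold higher and 9.81% lower than wt in ZnF4, together 13.5%. In ZnF1 2.07% were higher and 2.21% lower, together 4.28%. The wt value lay between the mutants for 462 of the 542 higher genes (85.2%) and for 844 of the 1195 lower ones (70.6%). These comparisons share their libraries, so the classes only sort the genes.

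**Figure D2:**
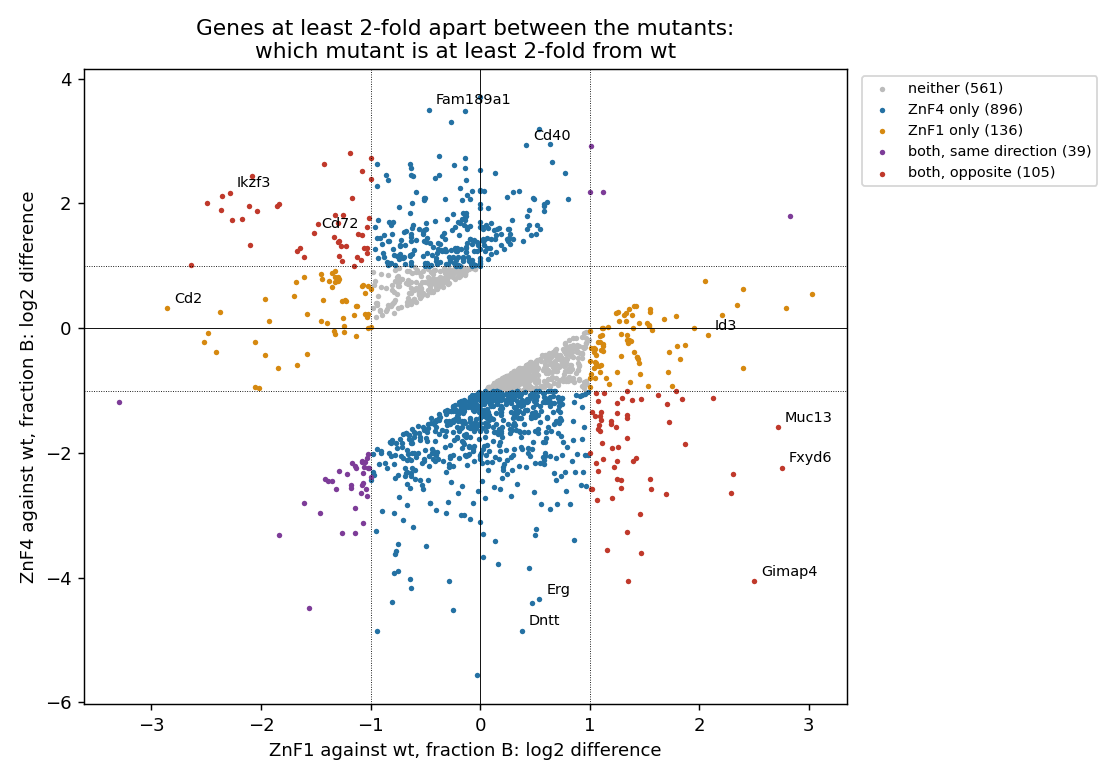
Log2 difference of ZnF1 from wt (x axis) and of ZnF4 from wt (y axis) for the 1737 genes at least 2-fold apart between the mutants, coloured by which mutant was at least 2-fold from wt. Most points lie above or below the centre, where ZnF4 alone departs (896 genes), and 105 genes such as Ikzf3 and Gimap4 lie in opposite corners.

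The patterns are shown by 4 genes whose promoters are in the RefSeq table: Dntt, low in ZnF4 alone, Id3, high in ZnF1 alone, and Gimap4 and Polm, apart from wt in both mutants oppositely. Each window runs from 250 bases before to 50 after the gene's start in GRCm38.p6, not the build of the deposited values. It is written 5′ to 3′ on the gene's strand, with capitals for GGGAA or its reverse TTCCC, letters found in known Ikaros sites. Either form was in 62.7% of all 32851 windows of that length in the table, so a match is common. Dntt held 1 match, Polm 2, Id3 and Gimap4 0. Only 70.7% of the higher and 79.7% of the lower genes had a window, under the 80% set for such a check, so a comparison of motif shares between them is void.
Dntt, chr19:41029025-41029324, plus strand: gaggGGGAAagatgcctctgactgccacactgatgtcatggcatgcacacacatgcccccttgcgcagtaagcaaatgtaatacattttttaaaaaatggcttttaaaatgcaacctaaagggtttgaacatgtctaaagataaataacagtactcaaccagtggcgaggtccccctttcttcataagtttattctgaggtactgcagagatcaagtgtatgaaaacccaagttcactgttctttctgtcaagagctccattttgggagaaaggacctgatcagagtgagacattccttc
Id3, chr4:136143572-136143871, plus strand: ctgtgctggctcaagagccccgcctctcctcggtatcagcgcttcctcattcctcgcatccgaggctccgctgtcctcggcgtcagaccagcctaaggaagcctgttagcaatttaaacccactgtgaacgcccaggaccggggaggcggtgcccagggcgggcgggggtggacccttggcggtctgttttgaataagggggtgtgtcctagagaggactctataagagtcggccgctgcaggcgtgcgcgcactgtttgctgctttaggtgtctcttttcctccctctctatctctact
Gimap4, chr6:48684328-48684627, plus strand: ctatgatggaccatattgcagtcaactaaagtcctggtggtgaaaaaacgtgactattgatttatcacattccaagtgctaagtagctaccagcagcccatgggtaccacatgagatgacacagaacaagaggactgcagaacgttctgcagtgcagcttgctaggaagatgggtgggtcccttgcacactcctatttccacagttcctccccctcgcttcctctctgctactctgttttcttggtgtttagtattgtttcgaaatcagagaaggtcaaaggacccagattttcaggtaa
Polm, chr11:5837967-5838266, minus strand: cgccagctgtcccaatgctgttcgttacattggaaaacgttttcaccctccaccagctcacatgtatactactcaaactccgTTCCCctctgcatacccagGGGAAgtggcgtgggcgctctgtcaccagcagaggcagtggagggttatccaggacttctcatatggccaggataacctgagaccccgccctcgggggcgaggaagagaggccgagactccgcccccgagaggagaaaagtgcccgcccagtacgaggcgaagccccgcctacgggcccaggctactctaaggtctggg

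In the Ikaros family, the mutated gene Ikzf1 had 181.5 RPKM in ZnF1, 150.3 in wt and 431.6 in ZnF4, 2.37-fold higher in ZnF4 than in ZnF1. These values per transcript do not show a removed finger, so they do not check the labels. Ikzf3, which encodes Aiolos, the relative that accumulates as B cells mature, was at 11.9 RPKM in ZnF1, 61.9 in wt and 282.7 in ZnF4, so that the mutants flanked wt and lay 22.0-fold apart. Ikzf5, a more distant relative, was at 3.7 RPKM in ZnF1, 4.6 in wt and 4.7 in ZnF4. Ikzf2 (Helios) and Ikzf4 (Eos) were under the filter, at 0.8 RPKM or less in every fraction B library.

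The largest folds upward in ZnF4 belonged to genes on which the mutants went opposite ways. Srpk3, a kinase of splicing factors, was at 2.1 RPKM in ZnF1, 12.1 in wt and 69.8 in ZnF4 (22.8-fold). Polm, a DNA polymerase of end joining, was at 7.3, 45.6 and 185.7 in that order (22.5-fold). Adam19, a cell surface protease, was at 5.1, 30.2 and 135.0 (22.3-fold). Of the 15 genes with the highest folds only Fam189a1 was not of this kind, at 0.3 RPKM in ZnF1, 0.8 in wt and 19.4 in ZnF4 (15.7-fold). The others included Hdac9, a histone deacetylase (1.2, 8.0 and 32.0 RPKM), Inppl1, a lipid phosphatase (1.0, 8.0 and 29.3, 15.2-fold), and Myl4, a myosin light chain (25.7, 95.5 and 376.2, 14.1-fold).

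In the other direction Gimap4, a GTPase of lymphocyte survival, had the largest fold of all, at 177.5 RPKM in ZnF1, 30.6 in wt and 0.9 in ZnF4 (93.9-fold lower in ZnF4). Egfl7, a secreted factor, was at 75.2, 28.9 and 0.8 (42.3-fold). Stat4, a transducer of cytokine signals, was at 38.3, 16.6 and 0.5 (26.2-fold). Fxyd6, a regulator of the sodium pump, was at 97.5, 13.6 and 2.1 RPKM (31.8-fold), and Muc13, a mucin, at 20.7, 2.3 and 0.1 (19.7-fold). In contrast Myl10, a myosin light chain, was alike in ZnF1 and wt (50.2 and 51.2 RPKM) and at 0.1 in ZnF4.

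By difference in RPKM rather than fold, Fam129c led the higher genes at 89.2 RPKM in ZnF1, 213.2 in wt and 749.7 in ZnF4. Cd72, an inhibitory receptor of B cells, followed at 88.9, 255.9 and 739.4. At the low end stood Dntt, and Coro1a, an actin regulator, at 1057.9 RPKM in ZnF1, 470.9 in wt and 477.1 in ZnF4, where ZnF1 alone departed. Its log2 difference of -1.15 became -0.99 after median-ratio rescaling, just under 2-fold. Crip1, a LIM domain protein, was at 346.6, 298.5 and 65.1, and Lgals1, galectin 1, at 338.2, 226.8 and 98.8.

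Genes of late preB differentiation had the highest median of the B-lineage lists. Of 19 kept, 14 were at least 2-fold higher in ZnF4 than in ZnF1 and 1 at least 2-fold lower, with a median log2 difference of 1.41 against -0.17 over all genes. The median was 1.33 for ZnF4 and -0.39 for ZnF1 against wt. In ZnF4 against wt 18 differences were positive and 1 was negative, that of Il2ra, a chain of the IL-2 receptor. Il2ra was at 5.3 RPKM in ZnF1, 24.5 in wt and 12.1 in ZnF4. Spib, an Ets factor, was at 191.5 RPKM in ZnF1, 297.3 in wt and 784.5 in ZnF4. Bach2, a repressor of the plasma cell programme, was at 57.6, 83.2 and 237.7, and Irf4, a factor of light chain opening, at 68.7, 90.5 and 209.3. Cd40, a co-stimulatory receptor, was at 10.8, 7.8 and 66.1 RPKM, near wt in ZnF1 and high in ZnF4. Cd2, an adhesion receptor, was low in ZnF1 instead, at 4.4 RPKM against 38.1 in wt and 47.8 in ZnF4. Several of these genes, such as Spib, Irf4 and Bach2, are also in the list of B-lineage transcription factors below. Negative were S1pr1, an egress receptor, at 25.6 RPKM in ZnF1, 18.7 in wt and 20.4 in ZnF4, and Ltb, lymphotoxin beta, at 78.9 in ZnF1, 24.0 in wt and 26.8 in ZnF4.

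Surface receptors of maturing B cells split in a similar manner. Of 17 kept, 8 were at least 2-fold higher and 1 lower in ZnF4, median 0.91. Fcrla, a B-cell Fc receptor-like protein, was at 79.2 RPKM in ZnF1, 151.6 in wt and 507.9 in ZnF4, and Tlr9, a sensor of DNA, at 10.7, 11.8 and 45.0. MHC class II genes had 3 of 11 higher and 1 lower, median 0.70. The invariant chain Cd74 was at 259.7 RPKM in ZnF1, 172.7 in wt and 692.8 in ZnF4, and Ciita, the activator of the class II genes, at 4.3, 4.5 and 13.7. H2-Oa, a modulator of peptide loading, was at 34.0, 18.5 and 14.7.

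**Figure D3:**
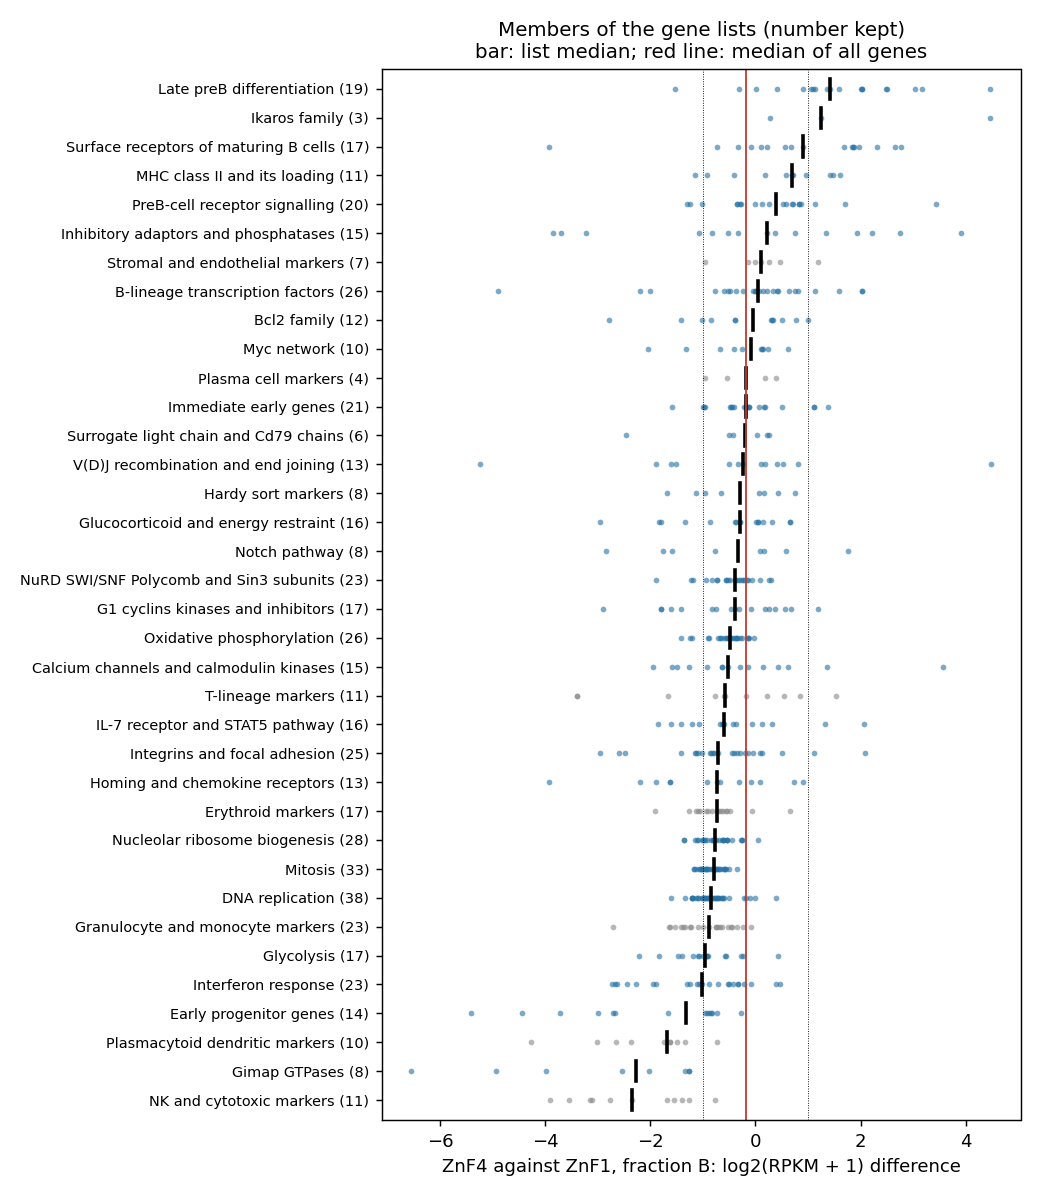
Log2 difference of ZnF4 against ZnF1 in fraction B for each kept member of the gene lists (points) with the list medians, beside the median over all genes (-0.17). Late preB genes lie highest among the B-lineage lists at 1.41, while NK markers and Gimap GTPases lie lowest, at -2.35 and -2.28.

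The preB cell receptor itself differed less. Of the surrogate light chain and Cd79 genes 1 of 6 was at least 2-fold apart: Vpreb2, at 69.7 RPKM in ZnF1, 28.7 in wt and 11.9 in ZnF4. Vpreb1 and Vpreb2 are close copies, so the split of their reads is uncertain. Igll1 was at 1022.9 in ZnF1 and 1049.9 in ZnF4, both above the 639.9 of wt. PreB receptor signalling genes had 3 of 20 higher and 3 lower, median 0.39. Rasgrp1, a Ras activator, was at 2.2 RPKM in ZnF1, 12.7 in wt and 33.5 in ZnF4 (10.8-fold), and the kinase Blk at 41.7, 82.2 and 139.1. The linker Blnk was at 386.5, 323.7 and 163.2, lower in ZnF4.

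Inhibitory adaptors and phosphatases went both ways, 5 of 15 higher and 4 lower, median 0.22. Dok3, an adaptor that dampens B-cell signals, was at 106.9 RPKM in ZnF1, 117.2 in wt and 412.5 in ZnF4, and Sit1, a transmembrane adaptor, at 11, 20.4 and 55.1. Dok2 was at 14.9, 5.5 and 0.1, Ptpn22, a tyrosine phosphatase, at 18.6, 8.0 and 1.1, and Lax1, a membrane adaptor, at 27.6, 27.0 and 1.2. The relatives Dok2 and Dok3 thus lay on opposite sides.

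Recombination genes had 1 of 13 higher and 4 lower. Dntt, the terminal transferase that diversifies junctions, was at 739.4 RPKM in ZnF1, 568.7 in wt and 18.7 in ZnF4 (37.6-fold lower in ZnF4). Rag2 was at 70.0, 44.5 and 18.1, and Rag1, its partner in the recombinase, at 344.1, 225.5 and 120.1. Poll, a polymerase of end joining, was at 17.3, 9.5 and 5.0 RPKM, opposite in direction to Polm. Dntt, Rag1, Rag2 and Poll were each highest in ZnF1 and lowest in ZnF4.

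B-lineage transcription factors had 4 of 26 higher and 3 lower, median 0.04. Erg, an Ets factor of progenitors, was at 164.7 RPKM in ZnF1, 113.0 in wt and 4.6 in ZnF4 (29.6-fold lower). Lef1, a factor of early B cells, was at 150.4, 117.2 and 36.5. Id3, which blocks E proteins, was at 135.7 in ZnF1, 31.4 in wt and 28.9 in ZnF4, high in ZnF1 alone. Ebf1, the factor that commits cells to the B lineage, was at 164.8, 178.8 and 221.7, under 2-fold apart. The list named Hardy sort markers had 0 of 8 higher and 2 lower. These were Bst1 (BP-3), at 75.0, 67.9 and 22.8, and Spn (CD43), at 110.1, 82.3 and 49.9 RPKM (log2 -1.13, and -0.97 after median-ratio rescaling). Bst1 is in the list but is not a gate of the Hardy scheme. Enpep (BP-1), which separates fraction B from C in that scheme, was at 2.3, 3.5 and 1.1 RPKM. In fraction C it was at 20.2, 56.6 and 43.1.

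**Figure D4:**
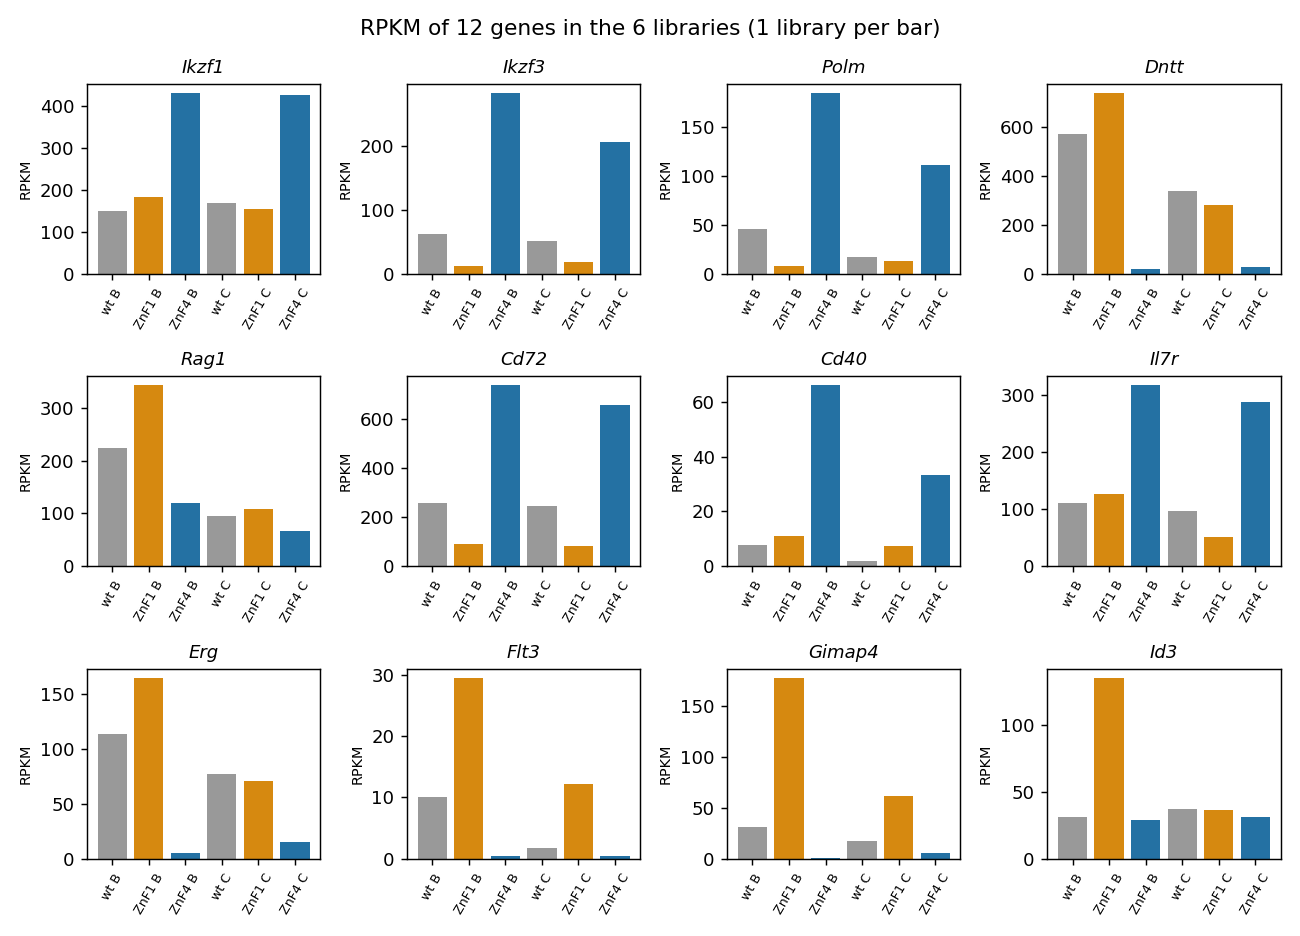
RPKM of 12 genes in the wt, ZnF1 and ZnF4 libraries of both fractions, 1 library per bar, each panel on its own linear axis from 0. In fraction B Ikzf3 lies below wt in ZnF1 and above wt in ZnF4, while Dntt is low in ZnF4 alone.

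Early progenitor genes had 0 of 14 higher and 7 lower, and none had a positive difference, with a median of -1.31. Flt3, a cytokine receptor of multipotent progenitors, was at 29.5 RPKM in ZnF1, 10.1 in wt and 0.4 in ZnF4, and Ly6a, which has close copies, at 24.1, 9.3 and 0.9. Meis1, a partner of Hox factors, was at 7.0, 4.0 and listed at 0 in ZnF4. Kit was at 14.6, 14.2 and 7.0. The median was 0.64 for ZnF1 and -1.16 for ZnF4 against wt.

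All 8 Gimap GTPases were at least 2-fold lower in ZnF4, with a median of -2.28, and were highest in ZnF1. Gimap3 was at 35.6 RPKM in ZnF1, 6.5 in wt and 0.2 in ZnF4, and Gimap6 at 220.1, 83.8 and 37.0. The smallest gap was that of Gimap5, at 9.5, 5.2 and 3.4 (2.39-fold). The 8 genes follow each other in the RefSeq gene order on chromosome 6, the longest run among genes apart. Of the higher genes with a known place, 133 of 537 (24.8%) had a higher gene as next kept neighbour, against 9.46% of all 10894 placed genes. Of the lower genes, 409 of 1192 (34.3%) had a lower one, against 20.2%. These counts keep small RNAs and entries of the same locus that can share reads. Examples are Pcdhgb1 and Pcdhgb2 among the higher genes, and Ugt1a7c and Ugt1a6b among the lower. Their part in these shares was not tested. Some runs of lower genes hold related genes, such as Hoxa5, Hoxa7 and Hoxa9, or Fads3, Fads2 and Fads1, named here after their values were seen.

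In the IL-7 and STAT5 pathway, the main growth signal of proB cells, 2 of 16 genes were at least 2-fold higher in ZnF4 and 5 lower, median -0.61. Il7r was at 125.6 RPKM in ZnF1, 110.2 in wt and 316.6 in ZnF4, and Pim2, a survival kinase, at 6.4, 11.3 and 30.1. The receptor kinase Jak3 was at 24.5, 19.5 and 7.4, and Cish, a feedback target of STAT5, at 8.4, 5.0 and 1.6. Pim1 was at 110.1, 59.5 and 47.1. In the Bcl2 family 1 of 12 was higher and 3 lower. Bok was at 13.4, 7.6 and 1.1 RPKM, and Bmf, a cell death inducer, at 34.9, 24.2 and 71.0.

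Most differences in the lists of ribosome biogenesis, metabolism, replication and mitosis were negative in fraction B. Myc was at 25.7 RPKM in ZnF1, 48.7 in wt and 5.5 in ZnF4. It was 7.65-fold below wt in ZnF4 and 1.86-fold, under the 2-fold limit, in ZnF1. Nucleolar ribosome biogenesis had 0 of 28 higher and 7 lower (median -0.77), for example Ncl, nucleolin, at 82.5, 111.1 and 37.8. Glycolysis had 0 of 17 higher and 8 lower (-0.96), for example Ldha, lactate dehydrogenase, at 65.1, 44.7 and 13.3. Oxidative phosphorylation had 0 of 26 higher and 3 lower (-0.49), for example Cox5a at 92.1, 58.1 and 39.3. DNA replication had 0 of 38 higher and 11 lower (-0.85), for example the helicase subunit Mcm6 at 196.4, 176.5 and 84.3. Mitosis had 0 of 33 higher and 8 lower (-0.79), for example Cdk1 at 56.2, 46.7 and 26.3. In replication 37 of 38 and in mitosis 33 of 33 differences were negative, most of them under 2-fold. The 2-fold share of oxidative phosphorylation genes was near the 10.9% of all genes. After median-ratio rescaling Ncl and Cdk1 were under 2-fold, at log2 -0.95 and -0.91. G1 regulators had 1 of 17 higher and 5 lower (-0.39): the inhibitor Cdkn1a was at 58.1, 31.0 and 6.9 RPKM, and cyclin Ccne1 at 35.9, 24.3 and 9.6. The Myc network as a whole had 0 of 10 higher and 2 lower, Myc and Mycl1. Mycl1 was at 2.0 RPKM in ZnF1, 1.5 in wt and 0.2 in ZnF4. It reached the mean of 1 RPKM only through the ZnF1 library of fraction C, where it was at 2.2. In fraction C the medians were 0.11 for ribosome biogenesis, with 0 of 28 at least 2-fold apart, 0.01 for oxidative phosphorylation, 0.24 for G1 regulators, 0.44 for replication and 0.27 for mitosis. Glycolysis stayed negative there, at -1.28. The median of proB markers was -0.20 in fraction B and 0.89 in fraction C. The ZnF1 library of fraction C held high granulocyte and erythroid marker sums, described below, and its part in these medians was not tested.

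The remaining signalling lists differed in how many members were apart. Integrin and focal adhesion genes had 2 of 25 higher and 8 lower (median -0.71), Itgal, the LFA-1 alpha chain, being at 47.6 RPKM in ZnF1, 39.9 in wt and 7.1 in ZnF4. Homing and chemokine receptors had 0 of 13 higher and 5 lower (-0.72), while Cxcr4, which holds precursors in the marrow, was at 218.6, 255.2 and 408.5. Interferon response genes had 0 of 23 higher and 12 lower (-1.01), with Irf7, a master factor of that response, at 19.4, 17.7 and 2.2. In the Notch pathway 1 of 8 was higher and 3 lower. Hes1, a target, was at 33.0, 18.4 and 10.3, and Dtx1, the higher gene, at 1.0, 3.2 and 5.8. Of 15 calcium channel and calmodulin kinase genes 2 were higher and 4 lower (-0.51). Cacna1h, a calcium channel, was listed at 0 in ZnF1 and stood at 0.2 in wt and 10.9 in ZnF4. Glucocorticoid and energy restraint genes had 0 of 16 higher and 4 lower (-0.29), for example Fkbp5 at 33.5, 26.9 and 8.7. Immediate early genes had 3 of 21 higher and 2 lower (-0.18), a median next to that of all genes. NuRD, SWI/SNF, Polycomb and Sin3 subunits, the partners of Ikaros in chromatin, had 0 of 23 higher and 3 lower (-0.39), with Mta3 at 36.7, 21.8 and 9.2. That share, too, is near the one of all genes.

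Markers of other blood cells differed between the mutants as well. NK and cytotoxic markers summed to 110.2 RPKM in wt, 67.0 in ZnF1 and 2.7 in ZnF4, where 7 of 11 were listed at 0. Of these 10 were at least 2-fold lower (median -2.35), Ccl5 being at 14.1 in ZnF1 and listed at 0 in ZnF4. Plasmacytoid dendritic markers summed to 143.2, 163.1 and 22.4, with 9 of 10 lower (-1.68) and 1 listed at 0 in ZnF4. Their lectin Siglech was at 24.2, 20.2 and 0.1 RPKM. Granulocyte and monocyte markers summed to 4062.4, 1798.2 and 1068.6 (11 of 23 lower, -0.87), erythroid markers to 426.8, 257.2 and 184.6 (5 of 17 lower, -0.74), and T-lineage markers to 104.2, 64.0 and 59.8 (1 of 11 higher, 3 lower, -0.57, but 0.22 without the genes high in the fraction C library of ZnF1, described below). Of the 4 plasma cell markers kept 0 were at least 2-fold apart, and of the 7 stromal markers 1 was higher and 0 lower. The 2 megakaryocyte markers kept, Pf4 and Itga2b, were at 0.8 RPKM or less in each fraction B library, where the scale used allows no 2-fold difference. They passed the filter through the ZnF1 library of fraction C (14.6 and 10.7). Of the other marker lists, Cd14, Cd8a, Cd3g and Gzmb also reached the mean of 1 RPKM only through that library. They were at 28.1, 6.8, 3.9 and 4.1 RPKM there. Cd8a is among the 3 lower T-lineage markers. The part of these cells in the lower values of progenitor, interferon, integrin and homing genes was not tested.

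**Figure D5:**
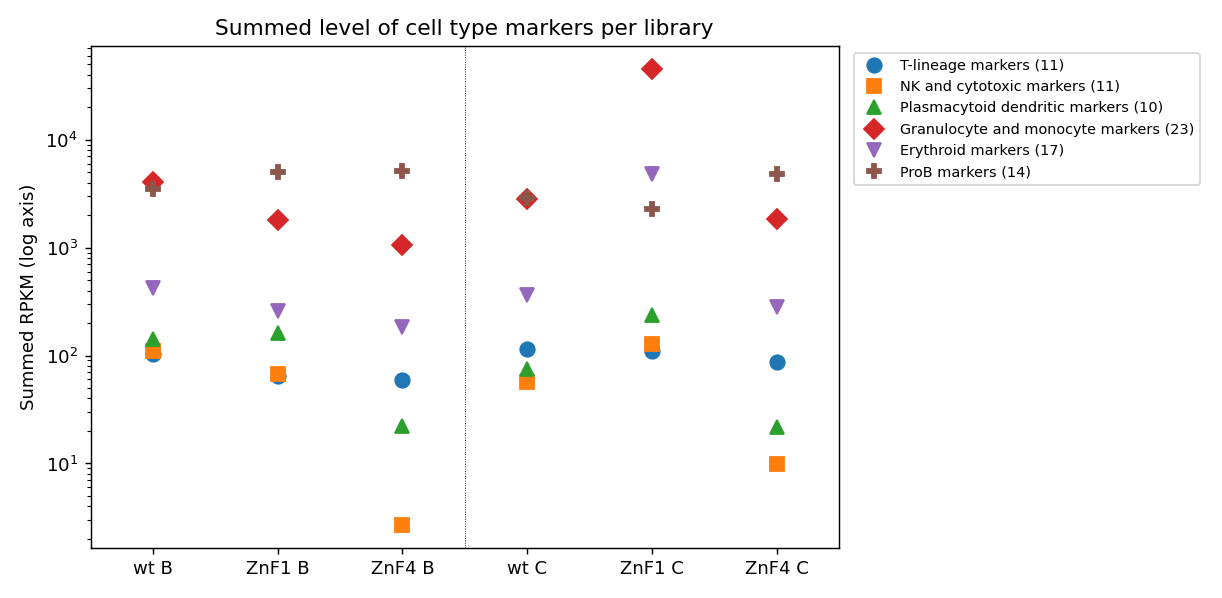
Summed RPKM of the marker lists of other cell types in each of the 6 libraries, on a log scale. In fraction B NK and plasmacytoid dendritic sums are lowest in ZnF4, and in fraction C the ZnF1 library stands far above the rest for granulocyte and erythroid markers.

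The same pair of genotypes was measured in fraction C, where 7.41% of genes were at least 2-fold higher in ZnF4 and 14.1% lower, together 21.6%. Of the 542 genes higher in fraction B, 340 were also at least 2-fold higher in fraction C, which is 62.7% of the first list and 41.9% of the 811 of the second. Of the 1195 lower genes, 596 were lower there as well (49.9% and 38.5% of the 1548). Opposite by at least 2-fold were 18 and 5 genes. Genes with both mutants at least 2-fold from wt in opposite directions in fraction B were also at least 2-fold apart, the same way, in fraction C in 39 of 44 higher and 56 of 61 lower cases. With both mutants at least 2-fold from wt in the same direction it was 2 of 4 and 33 of 35, with ZnF4 alone 182 of 253 and 401 of 643, with ZnF1 alone 30 of 54 and 29 of 82, and with neither 87 of 187 and 77 of 374. The classes also differ in size of gap. Median log2 differences between the mutants in fraction B were 3.05 and -3.16 with both opposite. They were 1.55 and -1.22 with both in the same direction, and 1.16 and -1.16 with neither. The shares are therefore not compared at equal size. Ikzf3 was at 17.4 RPKM in ZnF1 and 205.4 in ZnF4 in fraction C, and Dntt at 281.2 and 25.7. Id3 did not repeat its gap, at 36.2 and 31.3. Of the Gimap genes 4 of 8 were at least 2-fold lower in fraction C (median -1.06), while Gimap8 was at 6.1 RPKM in both mutants and Gimap5 at 4.3 in ZnF1 and 4.6 in ZnF4. The fraction C library of ZnF1 held 45426.2 RPKM of granulocyte and monocyte markers against 2838.4 in wt, and 4834.2 of erythroid markers against 366.3, and its part in the folds of fraction C was not tested. Without genes at least 2-fold higher in that library than in wt, 480 higher and 845 lower genes were left in fraction B. The lower genes shared between the fractions then numbered 256, a fall that the choice itself brings about in part, since it removes genes high in the ZnF1 library that fraction C is compared with. In that setting the medians of early progenitor and NK genes were -2.17 and -2.35, and those of integrin, interferon and homing genes -0.40, -0.49 and -0.31.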

How the data were processed

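Total RNA of sorted proB cells was sequenced in 6 libraries, 1 per genotype and fraction, with a TruSeq kit per the labels' protocols. The authors deposited RPKM per RefSeq transcript, per the file headers. Build mm9 and the tools TopHat and bedtools appear, with no version or role, per the submitters' processing notes. No source used here gives strand use or the division of shared reads, so genes with near-identical copies (Gimap, Ly6, Vpreb, Klr, Gbp, globins) and Xist with its antisense partner Tsix are uncertain. Of 26532 entries, 1 has no gene name and was left out, and 0 columns belong to other samples. Read numbers were not recovered from the rounded values, so depth is unknown.

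Folds were computed with Python 3.11.15 and pandas 2.3.3, with a pseudocount of 1 RPKM, and the code was tested on simulated data. The 39 gene lists hold 636 genes, 631 of them in the table and 574 kept; Syk is listed as Sykb. The members and lists were chosen with earlier results of these data known. Named genes are the 15 highest and 15 lowest folds with 5 RPKM or more in the higher library, the 8 largest RPKM differences each way, the 8 most opposite each way, up to 4 per list and direction, and Ikzf1 to Ikzf5, Myc, Dntt, Igll1, Rag1, Rag2 and sex-linked genes. Small RNAs and unnamed models are not named. Some genes that the rule selects are left out of the text, and Il2ra and the examples of neighbouring genes are named outside it.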

Additional observations from a re-analysis of the deposited data

Results flagged for a closer look

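For ZnF4 against ZnF1, 3 named genes were at least 2-fold apart in opposite directions in the 2 fractions, and 3 lists had medians of opposite sign and at least 0.25 from 0 in both. With 1 library a side, the difference between fractions was not tested. The log2 difference of Fos, an immediate early factor, was 1.12 in fraction B and -4.15 in fraction C. Klf4, a zinc finger factor, was at 1.38 and -1.09. Zfp36, which destabilises cytokine RNA, was at 1.11 and -1.01. In the fraction C library of ZnF1, which holds the high granulocyte and erythroid marker sums, Fos was at 201.6 RPKM against 5.4 in its fraction B library. The medians of NuRD, SWI/SNF, Polycomb and Sin3 subunits were -0.39 and 0.33, of DNA replication -0.85 and 0.44, and of mitosis -0.79 and 0.27. Below that limit in one fraction or both, the median was -0.77 and 0.11 for ribosome biogenesis, -0.39 and 0.24 for G1 regulators, -0.24 and 0.51 for recombination, -0.20 and 1.18 for the surrogate light chain and Cd79 genes, -0.20 and 0.89 for proB markers, -0.49 and 0.01 for oxidative phosphorylation, -0.29 and 0.09 for Hardy sort markers, 0.22 and -0.04 for inhibitory adaptors, and 0.12 and -0.37 for stromal markers.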

How the results depend on the processing

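No paired analysis was possible because each group has 1 library. No setting reversed a named gene that was at least 2-fold apart. Of 186 such genes, 155 stayed past 2-fold with a pseudocount of 4 RPKM, 175 and 173 after rescaling on the median ratio and to equal sums, and all of those still in the table under the other settings. With that pseudocount of 4 RPKM 313 genes were higher and 609 lower, with ZnF4 alone apart from wt in 433, ZnF1 alone in 68, both oppositely in 42 and both alike in 4. The genes shared with fraction C were then 192 higher, 246 lower and 3 opposite. With a pseudocount of 0.25 RPKM both mutants were alike apart from wt in 99 genes and 54 were opposite in fraction C, against 39 and 23 as reported. With a mean of at least 5 RPKM, ZnF1 alone departed in 82, and 226 higher and 14 opposite genes were shared with or opposite in fraction C. After median-ratio rescaling 37 were opposite. Of the alternatives added after seeing the data, leaving out the genes high in the fraction C library of ZnF1 left 12 genes alike apart from wt, 256 lower genes shared and 7 opposite, and turned the T-lineage median to 0.22. Without a filter the Notch median turned to 0.11. In each of these turned cases the cause was not tested. Of 20 lists with a median beyond 0.5 either way, 12 to 20 stayed beyond it over the alternatives. The granulocyte and megakaryocyte medians have no value under the settings that left them no gene. RPKM without read numbers limits what can be said of genes near 0.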
